A study of Homo sapiens with 12 samples.

Results

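The transcripts described here encode the subunits of Polycomb repressive complex 2 (PRC2), with EZH2 at their centre. The 10 members are EZH2, EZH1, SUZ12, EED, RBBP4, RBBP7, JARID2, AEBP2, MTF2 and PHF19, picked by symbol and not by any measured value. Each symbol matched 1 Ensembl gene among the 57992 entries of the count table. All 10 passed the filter on low counts and were among the 15407 genes tested.

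PRC2 methylates lysine 27 of histone H3, a mark of genes kept silent. EZH2 or its close relative EZH1 carries the methyltransferase domain, and neither is active without SUZ12, which holds the complex together, and EED, which binds the finished mark and stimulates further methylation. RBBP4 and RBBP7 are histone-binding proteins that PRC2 shares with other chromatin complexes. Accessory subunits define alternative forms of the complex. One form carries JARID2 and AEBP2, and the other carries MTF2, PHF19 or PHF1, which recognise CpG-rich DNA or methylated histone tails. In prostate cancer EZH2 is known for its high level in advanced and metastatic disease, and for its role as a repressor of differentiation genes.

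Poly(A) RNA was sequenced from human prostate adenocarcinoma cell lines with 3 biological replicates each. MR49F was labelled resistant to enzalutamide, an antiandrogen drug. C4-2 and LNCaP were labelled sensitive. LNCaP is an androgen-responsive line from a lymph node metastasis. Both C4-2, which grows without androgen, and MR49F were derived from LNCaP, so the 3 lines share an origin. Among the lines used, MR49F alone stands for the resistant class, and C4-2 and LNCaP stand for the sensitive class. The labels record neither a drug exposure at harvest nor an allele or transgene. They do not say whether the replicates came from separate cultures, so that p-values measure the spread between these samples only. A further line named in the labels, C4-2R, is not used here.

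Total gene counts ran from 6990461 to 9375912 in 8 of the 9 libraries, while C4-2 replicate 1 had 42770072. The summed level of 8 prostate luminal markers was 8365 to 8607 CPM in MR49F, 6901 to 7934 CPM in C4-2 and 5717 to 5878 CPM in LNCaP, where CPM is a gene's share of a library scaled to library size, and none of the 8 was at 0 in any line. The summed level of 10 markers of other cell types was 6.92 to 7.36 CPM in MR49F, 24.7 to 29.3 in C4-2 and 30.1 to 34.1 in LNCaP. COL1A1, a collagen gene, made up most of that sum in LNCaP (25.4 CPM), and CD3E and KRT5, markers of T cells and basal cells, had no count in any line. The part of these marker levels in the results was not tested.

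EZH2 was higher in C4-2 than in either of the other lines. EZH2 (ENSG00000106462, GRCh38 chromosome 7, 148807383 to 148884321, minus strand) had 63.7, 65.6 and 64.5 CPM in MR49F libraries 1 to 3, 112, 114 and 117 CPM in C4-2, and 70.8, 67.5 and 66.4 CPM in LNCaP. Every C4-2 library lay above every library of the other lines, and the MR49F libraries lay just under the lowest LNCaP library. EZH2 was higher in C4-2 than in LNCaP by 0.74 on the log2 scale (1.67-fold, SE 0.0772, 95% interval 0.58 to 0.90, edgeR adjusted p = 9.77e-08). It was lower in MR49F than in C4-2 (log2 fold change -0.82, SE 0.0773, edgeR adjusted p = 1.25e-08). In RNA from bulk cultures, more cells with EZH2 and more EZH2 per cell cannot be told apart. Between MR49F and LNCaP the log2 fold change was -0.08, with an interval of -0.25 to 0.09 (edgeR adjusted p = 0.434). Of all tested genes, 20.1% had a greater absolute log2 fold change than EZH2 in C4-2 against LNCaP, so its shift was of a size seen in many genes. Tested against a 1.5-fold change, the rise in C4-2 just missed the threshold (edgeR adjusted p = 0.0511), whereas the lower level in MR49F than in C4-2 passed (edgeR adjusted p = 0.00371).

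EZH1 did not follow EZH2. EZH1 (ENSG00000108799, chromosome 17, 42700275 to 42745049, minus strand) encodes the weaker methyltransferase, which is the main one in many resting cells. It had 43.6, 47.1 and 42.9 CPM in MR49F, 38.1, 38.6 and 39.2 CPM in C4-2, and 40.4, 36.4 and 44.1 CPM in LNCaP. The LNCaP libraries spanned those of C4-2 and overlapped those of MR49F. The log2 fold change was 0.15 in MR49F against LNCaP (interval -0.05 to 0.34, edgeR adjusted p = 0.216) and -0.06 in C4-2 against LNCaP (interval -0.26 to 0.14, edgeR adjusted p = 0.620). Between MR49F and C4-2 it was 0.21 (edgeR adjusted p = 0.0598).

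**Figure D1:**
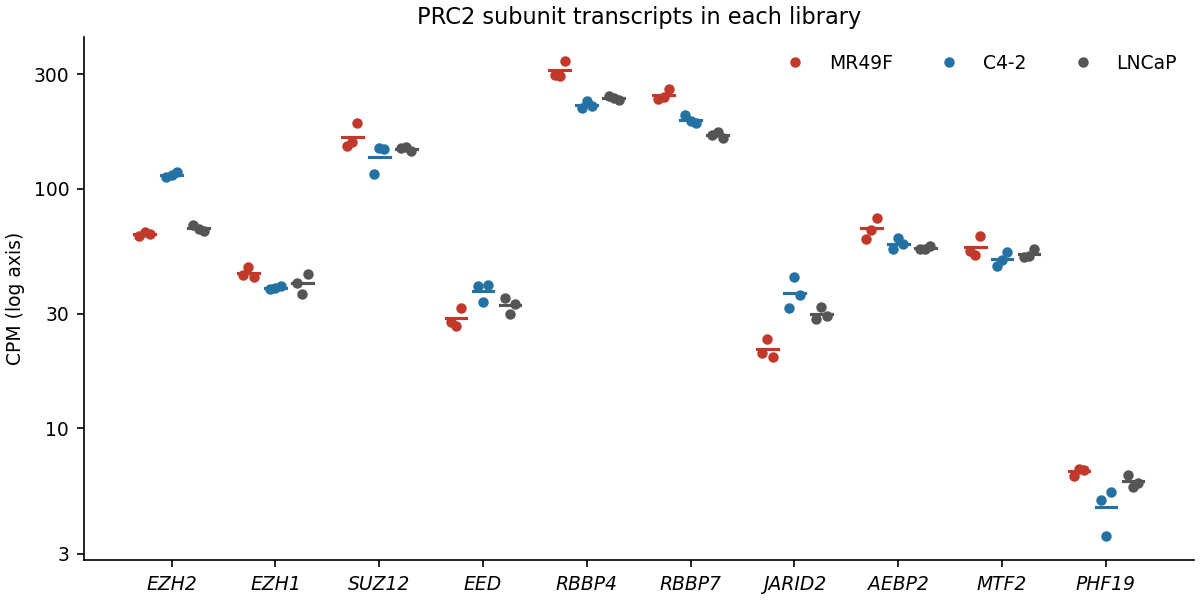
CPM on a log axis of the 10 PRC2 transcripts, with 3 libraries of MR49F, C4-2 and LNCaP each; points are single libraries and horizontal bars are line means. EZH2 stands out in C4-2 (112 to 117 CPM), JARID2 is lowest in MR49F (19.9 to 23.6 CPM), and PHF19 is the least abundant member in every line.

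A promoter window of EZH2 is printed because EZH2 differed most between the lines. EZH2 is also known as a target of E2F factors, which couple transcription to entry into the cell cycle. RefSeq (GRCh38.p14) gives 250 bases before and 50 after each start site, 15 windows for the 10 members. The EZH2 window at chr7:148884242-148884541, on the minus strand, reads as follows, with capitals for the E2F word TTTGGCGC and for CCAAT or its complement ATTGG, the box bound by NF-Y.
EZH2: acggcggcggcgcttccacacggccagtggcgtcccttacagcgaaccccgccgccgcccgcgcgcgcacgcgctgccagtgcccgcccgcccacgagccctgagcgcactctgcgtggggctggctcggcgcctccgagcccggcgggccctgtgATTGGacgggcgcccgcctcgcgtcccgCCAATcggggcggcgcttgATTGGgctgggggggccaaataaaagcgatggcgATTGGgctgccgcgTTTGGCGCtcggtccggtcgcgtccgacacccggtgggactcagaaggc
The window held 4 CCAAT boxes and 1 E2F word, which began 1 base after the start site, and none of these matches overlapped another. Its GC content was 74.7%. The other EZH2 window, at chr7:148883436-148883735, held no E2F word and no CCAAT box.

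An E2F word (TTTCCCGC, TTTGGCGC, TTTCGCGC or TTTGCCGC, on either strand) was present in 6 of the 15 windows, 1 for each of 6 members, against 3.31% of all 35116 RefSeq windows of that length. By gene, 3.99% of 27305 genes had such a word in any window. The 6 words are shown with 11 bases on each side, in the direction of the word and with the word in capitals, so that their surroundings can be compared.
EZH2: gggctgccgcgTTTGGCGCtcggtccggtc
EZH1: cactactgtcaTTTGCCGCcaaaaccccgc
SUZ12: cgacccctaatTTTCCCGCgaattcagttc
AEBP2: caaggcgacgtTTTGCCGCgatccccctgc
MTF2: cgccattttggTTTCCCGCggactgccggt
PHF19: ctttttcgcgtTTTCCCGCgaattattgac
CCAAT was found in 10 of the 15 windows, of 7 members, against 34.6% of all windows and 39.7% of all genes. The RBBP4 windows overlap, and a box that lies in both was counted in each. TTTGAA, the CHR element of cell-cycle genes, was found in the window of SUZ12 alone (15.2% of all windows). The members with an E2F word did not move together. Of the 6, EZH2 alone passed in C4-2 against LNCaP and AEBP2 alone in MR49F against LNCaP. A match to letters is a description and shows no binding.

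The scaffold subunit SUZ12 did not pass the test against LNCaP in either line. SUZ12 (ENSG00000178691, chromosome 17, 31937018 to 32001045) had 151, 156 and 187 CPM in MR49F, 115, 147 and 146 CPM in C4-2, and 147, 149.5 and 144 CPM in LNCaP. One library per derivative stood apart, MR49F replicate 3 on the high side and C4-2 replicate 1, the deepest library, on the low side. The log2 fold change was 0.16 in MR49F against LNCaP (edgeR adjusted p = 0.188). It was 0.05 without MR49F replicate 3 (adjusted p = 0.702), and passed with the same 0.16 without C4-2 replicate 1 (adjusted p = 0.0439). In C4-2 against LNCaP it was -0.12 (edgeR adjusted p = 0.323), and -0.19 to 0.00 with single libraries left out. SUZ12 was higher in MR49F than in C4-2 (0.28, SE 0.0983, edgeR adjusted p = 0.0170), but this call was lost without MR49F replicate 3 (0.18, adjusted p = 0.116) or without C4-2 replicate 1 (0.17, adjusted p = 0.0619). SUZ12P1, a transcribed pseudogene copy, had 13.1% as many counts as SUZ12 in MR49F, 19.0% in C4-2 and 11.2% in LNCaP. How reads that match both were counted is not given, so the SUZ12 values are uncertain.

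EED, the subunit that reads the methyl mark, was lower in MR49F than in C4-2. EED (ENSG00000074266, chromosome 11, 86244544 to 86278813) had 27.8, 26.8 and 31.6 CPM in MR49F, 39.3, 33.7 and 39.5 CPM in C4-2, and 34.9, 30.1 and 33.1 CPM in LNCaP. The LNCaP libraries overlapped those of both derivatives, and MR49F and C4-2 did not overlap. The log2 fold change was -0.39 in MR49F against C4-2 (SE 0.103, edgeR adjusted p = 0.00273). Against LNCaP it was -0.19 in MR49F (edgeR adjusted p = 0.160), -0.27 to -0.14 with single libraries left out, and passed only when scaled by total counts alone (-0.27, adjusted p = 0.0396). For C4-2 against LNCaP it was 0.20 (edgeR adjusted p = 0.106), 0.14 to 0.27 with single libraries left out, and passed only without C4-2 replicate 2 (0.27, adjusted p = 0.0310).

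The histone-binding subunits were both higher in MR49F. RBBP7 (ENSG00000102054, chromosome X, 16839283 to 16870414, minus strand) had 236, 242 and 259 CPM in MR49F, 202, 191 and 188 CPM in C4-2, and 168, 172 and 163 CPM in LNCaP. The libraries fell into 3 separate bands, with MR49F on top and LNCaP at the bottom. RBBP7 rose in MR49F by 0.55 on the log2 scale against LNCaP (SE 0.0745, edgeR adjusted p = 3.84e-06) and by 0.34 against C4-2 (SE 0.0737, edgeR adjusted p = 4.37e-04). It also rose in C4-2 against LNCaP (0.21, SE 0.0744, edgeR adjusted p = 0.0254), a call lost without any single LNCaP library (log2 fold change 0.18 to 0.22, adjusted p 0.0649 to 0.111) and with total-count scaling (0.13, adjusted p = 0.147).

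RBBP4 (ENSG00000162521, chromosome 1, 32651142 to 32686211) had 299, 295 and 342 CPM in MR49F, 216, 232 and 222 CPM in C4-2, and 244, 239 and 234 CPM in LNCaP. All MR49F libraries lay above all others, and C4-2 lay just under LNCaP. RBBP4 rose in MR49F by 0.38 against LNCaP (SE 0.0770, edgeR adjusted p = 3.59e-04) and by 0.48 against C4-2 (SE 0.0769, edgeR adjusted p = 1.61e-05). In C4-2 against LNCaP the log2 fold change was -0.10 (edgeR adjusted p = 0.292). The 6 processed pseudogenes named for RBBP4 had 7.68% as many counts as RBBP4 in MR49F, 5.96% in C4-2 and 9.05% in LNCaP, so part of its value is uncertain. RBBP7 shares 179 exonic bases with TXLNG on the opposite strand, and the strand setting of the counting is not given. TXLNG had log2 fold changes close to those of RBBP7, with 0.53 in MR49F against LNCaP, 0.14 in C4-2 against LNCaP and 0.38 in MR49F against C4-2.

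Of the accessory subunits, JARID2 was lower in MR49F. JARID2, a DNA-binding protein that helps recruit and stimulate PRC2 (ENSG00000008083, chromosome 6, 15246296 to 15522040), had 20.6, 23.6 and 19.9 CPM in MR49F, 31.9, 42.6 and 35.8 CPM in C4-2, and 28.5, 32.0 and 29.5 CPM in LNCaP. The MR49F libraries lay under all others, and the lowest C4-2 library, replicate 1, lay within the LNCaP range. JARID2 fell by 0.49 on the log2 scale in MR49F against LNCaP (SE 0.121, edgeR adjusted p = 0.00229) and by 0.76 against C4-2 (SE 0.117, edgeR adjusted p = 1.06e-05). In C4-2 against LNCaP the log2 fold change of 0.27 just missed the threshold (edgeR adjusted p = 0.0526). It passed without C4-2 replicate 1 (0.39, adjusted p = 0.00274), with that library thinned (0.30, adjusted p = 0.0280), without a filter on low counts (0.28, adjusted p = 0.0493) and with a replicate block (0.28, adjusted p = 0.0275). It was further from the threshold without C4-2 replicate 2 (0.15, adjusted p = 0.233) and with total-count scaling (0.20, adjusted p = 0.161), and the other alternatives did not pass.

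AEBP2, the zinc finger partner of JARID2 (ENSG00000139154, chromosome 12, 19404045 to 19720801), had 61.8, 67.3 and 75.3 CPM in MR49F, 55.7, 62.4 and 58.5 CPM in C4-2, and 56.1, 56.0 and 57.8 CPM in LNCaP. The MR49F libraries lay above LNCaP and overlapped C4-2. AEBP2 was higher in MR49F than in LNCaP (log2 fold change 0.27, SE 0.0908, edgeR adjusted p = 0.0200) and than in C4-2 (0.22, SE 0.0894, edgeR adjusted p = 0.0413). The first call was lost without any LNCaP library or MR49F replicate 3 (log2 fold change 0.18 to 0.27, adjusted p 0.0520 to 0.113), with total-count scaling (0.18, adjusted p = 0.117) and without a filter on low counts (0.25, adjusted p = 0.0540). The second was lost in 13 of 19 alternatives, among them without MR49F replicate 3 (0.14, adjusted p = 0.188). In C4-2 against LNCaP the log2 fold change was 0.05 (edgeR adjusted p = 0.671).

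The Tudor-domain subunits MTF2 and PHF19 did not pass against LNCaP in either line. MTF2 (ENSG00000143033, chromosome 1, 93079235 to 93139081) averaged 56.9 ± 5.65 CPM in MR49F, 50.7 ± 3.61 CPM in C4-2 and 53.3 ± 2.46 CPM in LNCaP (SD, n = 3 each). Its libraries overlapped in all comparisons, and the log2 fold change was 0.10 in MR49F against LNCaP, -0.08 in C4-2 against LNCaP and 0.18 in MR49F against C4-2 (edgeR adjusted p 0.112 or more). PHF19 (ENSG00000119403, chromosome 9, 120855652 to 120894896, minus strand) had 6.35, 6.77 and 6.69 CPM in MR49F, 5.04, 3.54 and 5.44 CPM in C4-2, and 6.41, 5.68 and 5.93 CPM in LNCaP, on 173 counts over MR49F, 276 over C4-2 and 153 over LNCaP. C4-2 replicate 2 was the lowest. PHF19 was higher in MR49F than in C4-2 (0.47, SE 0.172, edgeR adjusted p = 0.0240), a call lost without C4-2 replicate 2 (0.34, adjusted p = 0.0808), without MR49F replicate 2 or 3 (0.45 each, adjusted p = 0.0618 and 0.0602), without a filter on low counts (0.42, adjusted p = 0.0780) and with DESeq2 (0.47, adjusted p = 0.0684). Its log2 fold change was 0.13 in MR49F against LNCaP (edgeR adjusted p = 0.570) and -0.33 in C4-2 against LNCaP (edgeR adjusted p = 0.123).

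The subunits did not shift as a unit. In MR49F against LNCaP, 3 of 10 rose (RBBP4, RBBP7 and AEBP2) and 1 fell (JARID2), while 47.0% of all tested genes passed, 24.1% higher and 22.8% lower. In C4-2 against LNCaP, 2 of 10 rose (EZH2 and RBBP7) and none fell, where 49.7% of tested genes passed, 26.2% higher and 23.5% lower. The members' shares were thus near or below those of all genes in both comparisons with LNCaP, and they say nothing particular about PRC2. In MR49F against C4-2, 5 rose (SUZ12, RBBP4, RBBP7, AEBP2 and PHF19) and 3 fell (EZH2, EED and JARID2), where 61.0% of tested genes passed, 29.9% higher and 31.1% lower. The libraries did not overlap for 6 members in MR49F against LNCaP, 4 in C4-2 against LNCaP and 8 in MR49F against C4-2, against 59.8%, 55.7% and 61.9% of all tested genes. The median log2 fold change of the members was 0.14, 0.00 and 0.21 in that order, and that of all tested genes was 0.01, 0.00 and 0.00. The comparisons share libraries and are not independent of each other. No member changed by 2-fold between any pair of lines, and the greatest absolute log2 fold change was 0.82.

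**Figure D2:**
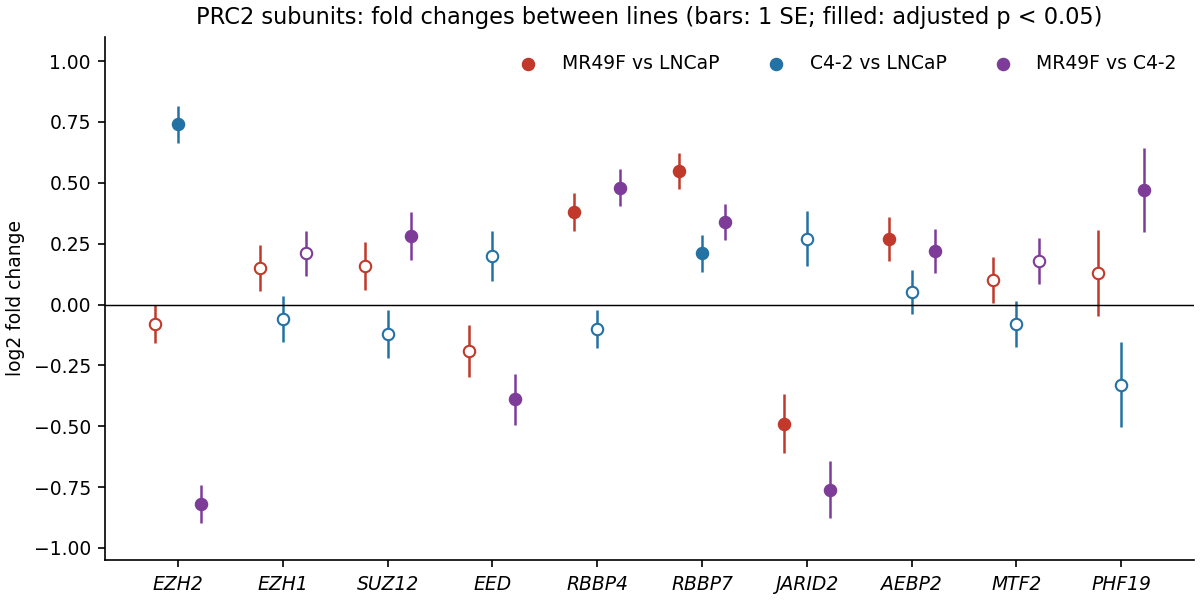
Log2 fold change of each PRC2 transcript in MR49F against LNCaP, C4-2 against LNCaP and MR49F against C4-2, with error bars of 1 SE; filled points passed an edgeR adjusted p of 0.05. EZH2 is at 0.74 in C4-2 against LNCaP and near 0 in MR49F against LNCaP, and RBBP4 and JARID2 are moved in opposite directions in MR49F.

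Levels of different subunits were compared as CPM per kilobase of annotated exon. In MR49F, RBBP7 and RBBP4 led with 33.2 ± 1.64 and 32.9 ± 2.75 CPM per kilobase (SD, n = 3), overlapping each other, followed by SUZ12 (25.1 ± 2.97), EZH2 (14.3 ± 0.207), AEBP2 (10.4 ± 1.03) and MTF2 (9.62 ± 0.956). In C4-2, EZH2 stood second with 25.3 ± 0.625 CPM per kilobase, overlapping RBBP7 (26.2 ± 0.993) and above RBBP4 (23.6 ± 0.884) and SUZ12 (20.8 ± 2.77). In LNCaP, RBBP4 (25.3 ± 0.537) lay above RBBP7 (22.7 ± 0.604) and SUZ12 (22.5 ± 0.422), which overlapped, and EZH2 followed with 15.1 ± 0.505. EZH1, EED and JARID2 ranged from 3.55 to 6.37 CPM per kilobase over the 3 lines, and neighbours among them overlapped except EZH1 and EED in MR49F. PHF19 was last in each line with 0.694 to 0.980 CPM per kilobase. The order depends on the length used. With the longest annotated transcript in place of all exons, 14 of the 30 ranks were kept, EED moved up to ranks 5 to 7, and PHF19 remained last in each line.

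The balance between paralogous and partner subunits is given as a description, without a test. EZH2 exceeded EZH1 by 2.24 ± 0.0897-fold per kilobase in MR49F, 4.57 ± 0.0458-fold in C4-2 and 2.64 ± 0.278-fold in LNCaP (SD, n = 3 each). The C4-2 libraries (4.53, 4.57 and 4.62) lay far from the others, and MR49F (2.26, 2.15 and 2.33) met LNCaP at its lowest library (2.71, 2.87 and 2.33). The EZH2-to-SUZ12 ratio was 0.573 ± 0.0633 in MR49F, 1.23 ± 0.153 in C4-2 and 0.672 ± 0.0211 in LNCaP. The RBBP4-to-RBBP7 ratio was 0.990 ± 0.0405 in MR49F, 0.902 ± 0.0596 in C4-2 and 1.11 ± 0.0263 in LNCaP, so that LNCaP was highest in every library. The JARID2-to-AEBP2 ratio was 0.345 ± 0.0495 in MR49F, 0.680 ± 0.0613 in C4-2 and 0.580 ± 0.0394 in LNCaP, with MR49F under all libraries of the other lines.

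**Figure D3:**
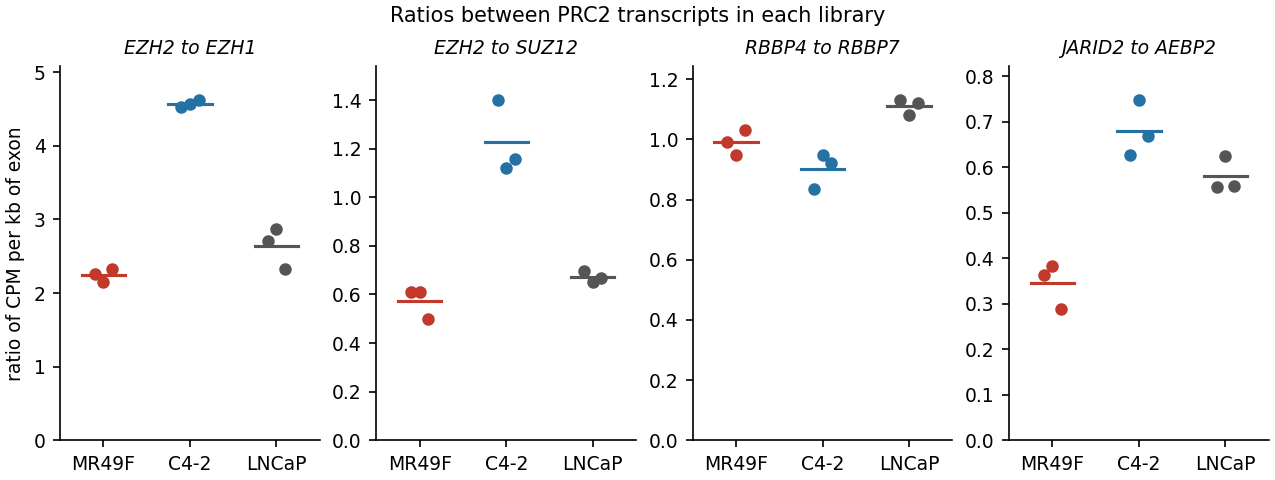
Ratio of CPM per kilobase of exon between pairs of PRC2 transcripts in each library of MR49F, C4-2 and LNCaP; points are libraries and bars are line means, on axes that start at 0. The EZH2-to-EZH1 ratio is 4.53 to 4.62 in C4-2 and at most 2.87 elsewhere, and the JARID2-to-AEBP2 ratio is lowest in MR49F.

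The genes around each member were set beside it, a step chosen after the values were seen. RBBP7 in MR49F lay at the level of its whole chromosome. The other 553 tested genes of chromosome X had a median log2 fold change of 0.54 in MR49F against LNCaP, with 354 higher and 42 lower, and RBBP7 was at 0.55. Within 5 Mb of RBBP7, 32 of 40 tested genes were higher and 2 lower (median 0.66). KDM6A, an H3K27 demethylase gene, is also on the X and rose by 0.54 in MR49F. Against LNCaP the chromosome X median of C4-2 was -0.11, with RBBP7 at 0.21.

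JARID2 lay outside the quartiles of its neighbours only in MR49F against LNCaP, and EZH2 lay outside those of its own in C4-2 against LNCaP. The 45 tested genes within 5 Mb of JARID2 had a median log2 fold change of 0.07 in MR49F against LNCaP. Their quartiles were -0.42 and 0.44, and JARID2 lay just below at -0.49. In C4-2 against LNCaP their median was 0.41 (quartiles 0.09 and 0.75), with JARID2 at 0.27. In MR49F against C4-2 they had a median of -0.31 (quartiles -1.18 and 0.07), with 26 lower and 8 higher. There JARID2 was at -0.76, within the quartiles. The other 766 tested genes of chromosome 7 had a median of 0.20 in C4-2 against LNCaP, with 315 higher and 92 lower. The 62 within 5 Mb of EZH2 had a median of 0.21 there (quartiles -0.09 and 0.49), against 0.74 for EZH2 itself. The 106 genes within 5 Mb of RBBP4 had a median of 0.05 in MR49F against LNCaP, against 0.38 for RBBP4. The 31 within 5 Mb of EED had a median of -0.16 in MR49F against C4-2, with 4 higher and 11 lower. Their quartiles were -1.42 and 0.12, and EED was at -0.39. In MR49F against LNCaP the median of these 31 was -0.15, and EED was at -0.19. The part of these chromosome-wide shifts in the members' values was not tested.

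**Figure D4:**
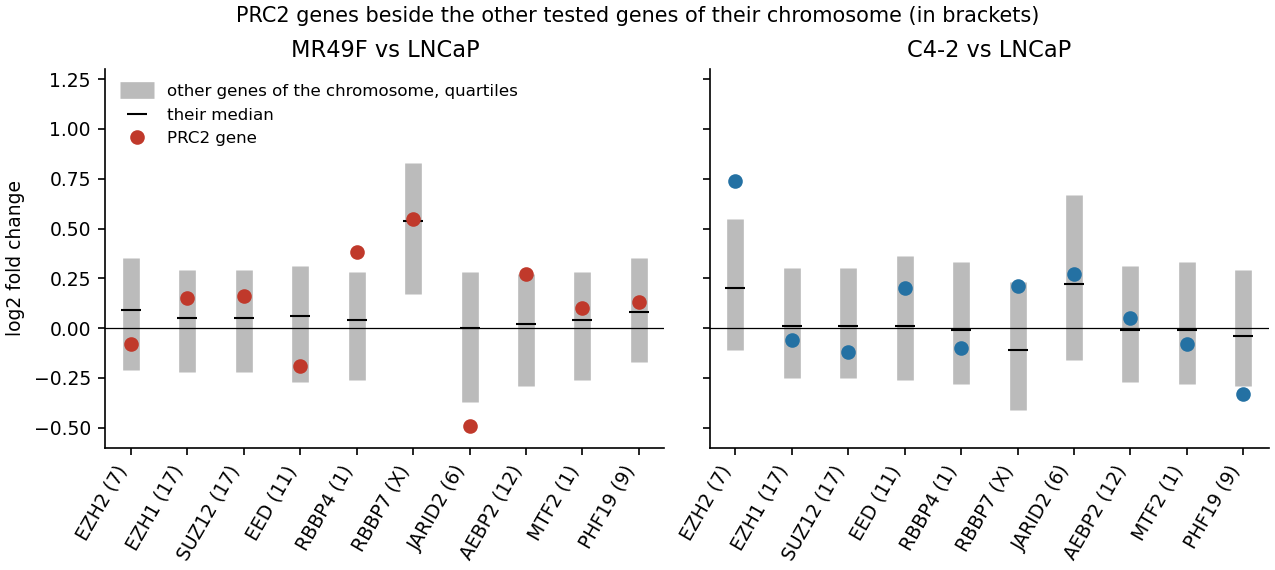
Log2 fold change of each PRC2 gene (point) beside the quartiles (grey) and median (black) of the other tested genes of its chromosome, named in brackets, in MR49F against LNCaP and C4-2 against LNCaP. RBBP7 lies on the chromosome X median in MR49F (0.55 and 0.54). JARID2 and RBBP4 in MR49F, and EZH2 and PHF19 in C4-2, lie outside the quartiles.

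Among further PRC2 accessory genes, PHF1, the third Tudor-domain paralogue, was higher in both derivatives, with 23.1 CPM in MR49F, 31.8 CPM in C4-2 and 17.0 CPM in LNCaP. Its log2 fold change was 0.45 in MR49F against LNCaP (edgeR adjusted p = 0.00690) and 0.92 in C4-2 against LNCaP (edgeR adjusted p = 3.18e-06). The genes around PHF1 were not set beside it, so the part of any shift of its chromosome was not tested. LCOR, whose locus also encodes a PRC2 accessory protein, was lower in MR49F (-0.40, edgeR adjusted p = 0.00872) and in C4-2 (-0.80, edgeR adjusted p = 1.33e-05). Its paralogue LCORL was higher in MR49F (0.32, edgeR adjusted p = 0.0490) and lower in C4-2 (-0.65, edgeR adjusted p = 4.62e-04). EPOP, which links PRC2 to elongin, was at 19.9 CPM in MR49F, 20.3 CPM in C4-2 and 19.8 CPM in LNCaP and passed in no comparison. EZHIP, an inhibitor of the complex, had no count in any line. The counts for these genes moved with the libraries used: 1 of the 4 tested passed in MR49F against LNCaP without LNCaP replicate 2 or without MR49F replicate 1, against 3 with all libraries.

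PRC1 complexes ubiquitylate histone H2A, and some forms of PRC1, not all, bind the mark that PRC2 lays down. Of 24 PRC1 genes tested, 8 were higher and 1 lower in MR49F against LNCaP (24.1% and 22.8% of all tested genes), with a median log2 fold change of 0.08, and 6 to 10 passed in either direction with single libraries left out. In C4-2 against LNCaP, 6 were higher and 6 lower (26.2% and 23.5% of all tested genes). BMI1, a core PRC1 subunit, was higher in MR49F (0.76) and in C4-2 (0.59), as were PCGF5 (0.78 and 0.49) and CBX2 (0.37 and 0.52), all with an edgeR adjusted p of 0.00114 or less. BMI1 shares exons with a readthrough gene, so its value is uncertain. CBX6 was lower in C4-2 (-0.46) and at 0.01 in MR49F.

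The lists that follow were not tested as groups, and their counts stand beside the same shares of all tested genes, 24.1% higher and 22.8% lower in MR49F and 26.2% higher and 23.5% lower in C4-2. The first list had 7 tested genes, those of H3K27 demethylases and acetyltransferases, BAP1, ASXL1 and ASXL2. Of these, 1 was higher and 2 lower in MR49F, and 1 was higher and 3 lower in C4-2. ASXL1 and ASXL2 are not enzymes, and ASXL1 was the one higher in C4-2 (0.25). KDM6A, which removes the methyl mark, was the one higher in MR49F (474 ± 8.29 CPM in MR49F and 326 ± 9.67 CPM in LNCaP, SD, n = 3 each). KDM6B, the other demethylase, was lower in C4-2 (-0.40, edgeR adjusted p = 0.00152) and at 0.07 in MR49F. EP300, which acetylates the same lysine, was lower in both (-0.72 in MR49F and -0.41 in C4-2), and ASXL2 was lower in C4-2 (-0.50). SWI/SNF remodellers, which counteract Polycomb repression, were lower in 6 of 14 cases in each derivative, with none higher in MR49F and 1 in C4-2 (all tested genes, 22.8% lower in MR49F and 23.5% lower in C4-2). Without LNCaP replicate 3, 3 SWI/SNF genes were lower and 1 higher in C4-2. SMARCC1 fell in MR49F (-0.69), SMARCA4 fell in MR49F (-0.27) and C4-2 (-0.50), PBRM1 fell in both (-0.46 and -0.36), and ACTL6A rose in C4-2 (0.46). Of the 5 H3K36 methyltransferases, whose mark hinders PRC2, none was higher and 3 were lower in C4-2 (NSD1, NSD2 and NSD3 at -0.53, -0.52 and -0.33), and all 5 were lower without C4-2 replicate 2. In MR49F 1 was higher (SETD2, 0.24) and 1 lower (NSD2, -0.22), calls that changed with most libraries left out. The higher call was also lost with DESeq2, total-count scaling, no filter on low counts and the replicate block. ASH1L passed in neither line with all libraries.

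DNA methylation genes and the other complexes that hold RBBP4 or RBBP7 showed no common direction with these subunits. DNMT1 (-0.49), its cofactor UHRF1 (-0.58) and DNMT3B (-0.35) were lower in MR49F and DNMT3A was higher (0.51), while in C4-2 DNMT3B alone passed (0.39). Of 19 genes of the NuRD, CAF-1, SIN3 and NURF complexes, 6 were higher and 6 lower in MR49F, and 3 were higher and 10 lower in C4-2, against 24.1% and 22.8% of all tested genes in MR49F and 26.2% and 23.5% in C4-2. CHD4, the NuRD remodeller, was higher in MR49F (0.30) and lower in C4-2 (-0.34), and CHAF1A, the partner of RBBP4 in histone deposition at replication, was lower in both (-0.83 in MR49F and -0.25 in C4-2). SAP18 was higher in both (0.82 in MR49F and 1.19 in C4-2), and MBD3 was lower in both (-0.41 and -0.55). The genes around SAP18 were not set beside it either.

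Proliferation genes are given because EZH2 is transcribed with the cell cycle. Of 18 tested, 2 were higher and 9 lower in MR49F against LNCaP, 6 were higher and 2 lower in C4-2 against LNCaP, and 2 were higher and 11 lower in MR49F against C4-2. The shares over all tested genes were 24.1% higher and 22.8% lower for MR49F and 26.2% higher and 23.5% lower for C4-2, each set against LNCaP, and 29.9% higher and 31.1% lower for MR49F set against C4-2. The C4-2 split was 2 higher and 3 lower when scaled by total counts alone, and 2 to 3 were higher and 2 lower without any single LNCaP library. MCM3, a subunit of the replicative helicase, had 107 CPM in MR49F, 219 CPM in C4-2 and 105 CPM in LNCaP (log2 fold change 1.06 in C4-2 against LNCaP, edgeR adjusted p = 4.72e-10). MCM3 is on chromosome 6. There the 770 tested genes other than JARID2 had a median log2 fold change of 0.22 in C4-2 against LNCaP, with 336 higher and 118 lower. The part of that shift in the MCM3 value was not tested. AURKA rose in C4-2 (0.71) and MR49F (0.35), TYMS fell in MR49F (-0.64) and rose in C4-2 (0.24), and PLK1 fell in MR49F (-0.56). Of 15 E2F and RB family genes, 3 were higher and 5 lower in MR49F, and 6 were higher and 1 lower in C4-2 (3 and 1 without LNCaP replicate 2 or 3, and 2 and 3 in MR49F without LNCaP replicate 3), against the same shares of all tested genes. E2F6, a repressor that works with Polycomb proteins, rose in MR49F by 1.12 (27.6 CPM in MR49F, 13.7 CPM in C4-2 and 12.7 CPM in LNCaP), and E2F5 rose there by 0.72. RB1 and RBL1 were higher in C4-2 (0.46 and 0.35). The part of proliferation in the EZH2 values was not tested.

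**Figure D5:**
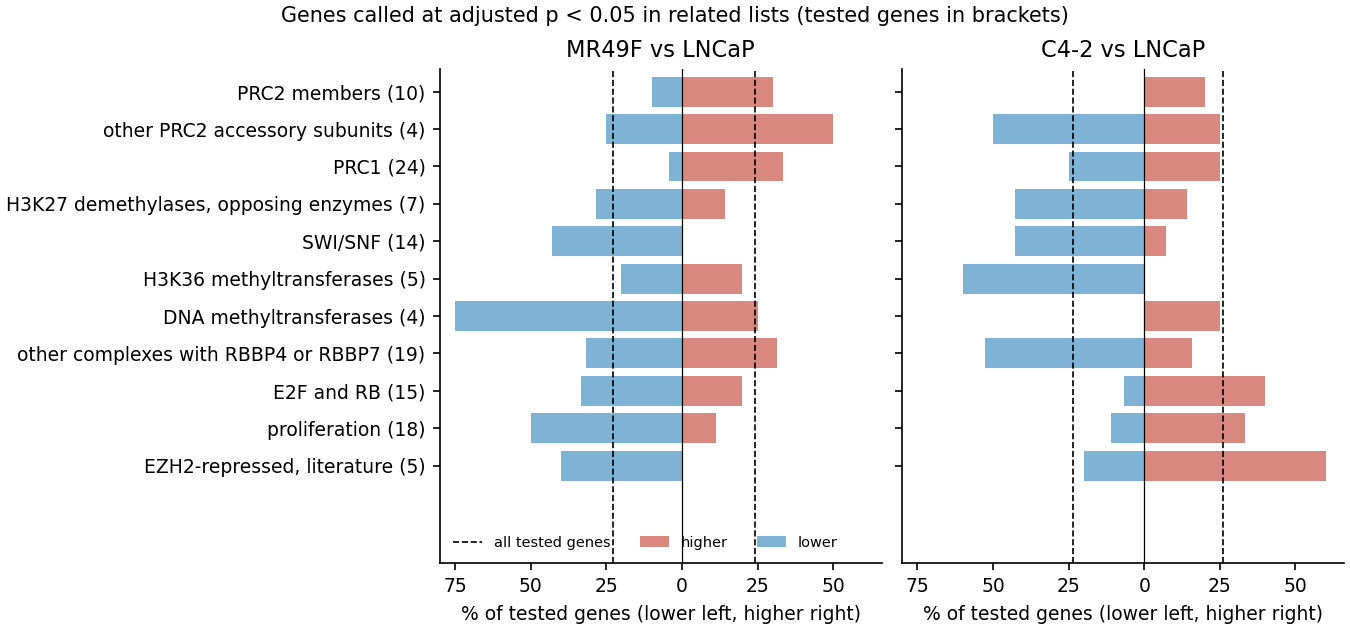
Share of tested genes in each list that were higher (right) or lower (left) at an edgeR adjusted p under 0.05, in MR49F against LNCaP and C4-2 against LNCaP; dashed lines mark the same shares over all tested genes. The PRC2 members are at or below the dashed lines except for the higher genes in MR49F, 3 of 10 against 24.1%.

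Genes described in the literature as repressed by EZH2 in prostate cancer did not move one way, with 0 higher and 2 lower of 5 tested in MR49F, and 3 higher and 1 lower in C4-2. Only 5 of 10 had enough counts to test, and RUNX3 and CNR1 had none in any line. DAB2IP, a RAS-regulating tumour suppressor gene, was lower in MR49F (-0.86, edgeR adjusted p = 1.67e-05) and in C4-2 (-1.25, edgeR adjusted p = 1.11e-07), with 16.4 CPM in MR49F, 12.8 CPM in C4-2 and 29.7 CPM in LNCaP. CDH1, which encodes E-cadherin, was lower in MR49F (-1.09) and higher in C4-2 (0.51). MSMB, a secreted prostate protein gene, was higher in C4-2 (0.98), averaging only 1.63 CPM in MR49F, 3.10 CPM in C4-2 and 1.61 CPM in LNCaP.

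The genes whose pattern was most like that of EZH2 were NCEH1, KDELR3, SLC16A3, FZD4 and GUCY1B1, with Pearson correlations of log2 CPM of 0.995 to 0.997 over the 9 libraries, among 10348 genes of at least 10 CPM on average. The 9 libraries form 3 lines, so the likeness rests on 3 line means and the genes share the depth of each library. The 5 were picked for following EZH2, so their higher level in C4-2 than in LNCaP comes from the choice and is no separate result. A correlation takes no account of the size of a shift, and all 5 shifted by more than EZH2. KDELR3, SLC16A3 and GUCY1B1 reached an average of 10 CPM only through C4-2. NCEH1, a cholesteryl ester hydrolase gene, had 22.5 CPM in MR49F, 81.7 CPM in C4-2 and 26.8 CPM in LNCaP (log2 fold change 1.59 in C4-2 against LNCaP). FZD4, a Wnt receptor gene, had 10.5 CPM in MR49F, 75.7 CPM in C4-2 and 13.5 CPM in LNCaP. KDELR3 had 2.75 CPM in MR49F, 26.8 CPM in C4-2 and 3.45 CPM in LNCaP, and GUCY1B1 had 0.232, 41.2 and 0.274 CPM in the same order. SLC16A3, a lactate transporter gene, had 0.615 CPM in MR49F, 42.4 CPM in C4-2 and 1.15 CPM in LNCaP.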

How the data were processed

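The deposited values are whole-number counts per Ensembl gene, which the authors left without normalization. Tools named in the submitters' processing notes, with no role stated, are TopHat2, HTSeq 0.6.1, FastQC 0.11.3 and edgeR 3.12.1, on build GRCh38.p12. Neither the strand setting nor the annotation release of the counting is stated. Per the labels, a stranded TruSeq kit was used. Of the table's columns, 3 match no sample title and were left out, so the fit held 9 libraries.

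The quasi-likelihood test of edgeR 4.0.16 (R 4.3.3; TMM scaling, filterByExpr, robust fit, 1 mean per line, 6 residual degrees of freedom) was fitted to 15407 genes, with Benjamini-Hochberg adjustment over all of them. An adjusted p under 0.05 counts as a change. CPM use TMM-scaled library sizes, and a standard error is the size of the log2 fold change over the root of F. Coordinates, exon lengths and neighbours come from GENCODE 29. Alternatives were DESeq2 1.42.0, voom of limma 3.58.1, other scalings and filters, a fit of the 6 libraries compared alone, the replicate number as a block, edgeR's glmTreat with a bound of 1.5-fold, C4-2 replicate 1 thinned to 17.6% of its counts, and each library left out. The fit was tested on data simulated with a spread common to all genes. Of 1.5-fold changes it recovered 61.2% in MR49F against LNCaP, 74.6% in C4-2 against LNCaP and 68.7% in MR49F against C4-2. Changes of that size or less can thus be missed. Genes outside the members were named by rule: every gene of a list of at most 5, and otherwise the 2 with the lowest adjusted p in each comparison with LNCaP; the 5 genes most like EZH2 were taken by correlation. The members and lists were chosen with earlier results of these data known. Some genes that this rule names are not reported here.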

Additional observations from a re-analysis of the deposited data

How the results depend on the processing

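The EZH2 differences kept their direction and their call in all 19 alternatives in MR49F against C4-2 (log2 fold change -0.85 to -0.80) and in 18 in C4-2 against LNCaP (0.67 to 0.76), the exception being the test against a 1.5-fold change. RBBP4, RBBP7 and JARID2 in MR49F against LNCaP also lost their calls in that test alone. In that edgeR test (glmTreat), 0 members passed in MR49F against LNCaP, 0 in C4-2 against LNCaP and 1 in MR49F against C4-2. Under it 13, 6 and 12 genes of the related lists passed in that order, and 2125, 2121 and 3398 of all genes. With total counts alone, 1 member passed in C4-2 against LNCaP. That scaling moved the median log2 fold change of all genes by -0.09 in MR49F and -0.08 in C4-2 against LNCaP, and called 2855 higher and 4284 lower in MR49F (3719 and 3516 with TMM) and 3449 and 4566 in C4-2 (4033 and 3625 with TMM). Leaving out single libraries gave 3 to 5 called members in MR49F against LNCaP, 1 to 3 in C4-2 against LNCaP and 5 to 8 in MR49F against C4-2, with 5 without MR49F replicate 3. Values that changed sign had no call: EZH1 in C4-2 against LNCaP ranged over -0.14 to 0.00 with single libraries left out (0.00 without LNCaP replicate 3), and AEBP2 there was at -0.02 with total counts alone.

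Same-numbered libraries of different lines did not deviate together (correlations -0.083 to 0.056). These correlations cannot show whether same-numbered samples were cultured or processed together, since a pairing of small effect would look the same. With the replicate block, 4, 3 and 7 members passed. By longest transcript, 14 of 30 ranks per kilobase were kept, the EZH2-to-EZH1 ratio was 1.84 in MR49F, 3.76 in C4-2 and 2.17 in LNCaP, and the RBBP4-to-RBBP7 ratio was 0.643, 0.586 and 0.723 in the same order. PHF19 rests on the fewest counts. The causes of these shifts were not tested beyond what each alternative changes.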
